A study of Mus musculus with 7 samples.

Results

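The enzymes of xenobiotic metabolism examined here are the protein-coding genes of 3 superfamilies, the cytochromes P450 (Cyp genes with a family number, a subfamily letter and a gene number), the soluble glutathione S-transferases (Gst genes with a class letter and a number) and the UDP-glucuronosyltransferases (Ugt genes with a family number, the letter a or b and a gene number, all members being of families 1 and 2). A gene became a member when its symbol had this form and its raw counts, summed over the 7 libraries, reached 10. The members were thus selected on their total count over both groups, not on the difference between them, although the gene families were taken up with earlier results known. Of 139 symbols of this form, 68 were members, out of 55414 genes in the count table: 39 of 94 P450s, 18 of 24 glutathione S-transferases and 11 of 21 UDP-glucuronosyltransferases. Of the 71 genes below the limit, 50 had no count in any library, 41 of them P450s and 9 of them UDP-glucuronosyltransferases. The members nearest to the limit were Ugt1a5 and Cyp2j8 with 13 counts each, and the nearest genes outside it, among them Gsta1, Gsta2, Cyp2a5 and Ugt1a9, had 9 counts each.

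The libraries were bulk RNA-seq of Paneth cells (PCs), the granule-filled secretory cells at the base of small intestinal crypts, which had been purified by cell sorting from C57BL/6J mice 15 h after an injection of the inflammatory cytokine TNF (tumour necrosis factor) or of buffered saline (PBS). There were 3 PBS libraries and 4 TNF libraries, each from a separate mouse. The labels give no dose, age, sex, sorting markers or dates, and batches could therefore not be looked at. The PBS libraries held 15511455 to 18388058 counts and the TNF libraries 16485259 to 19193721.

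Xenobiotic metabolism runs in steps. P450s are haem enzymes of the endoplasmic reticulum or of mitochondria that insert oxygen into drugs, dietary compounds, steroids and fatty acids, with electrons passed on by the reductase Por or by ferredoxin. Glutathione S-transferases then join electrophilic products to the tripeptide glutathione, and UDP-glucuronosyltransferases join hydroxyl and other groups to glucuronic acid, which prepares them for export. In the small intestine this system is best known from absorptive enterocytes, where it forms the first barrier to compounds taken up with food, and it is controlled by ligand-activated receptors such as Ahr and Nr1i2 and by hepatocyte nuclear factors.

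After TNF, most tested P450s and glutathione S-transferases and 3 of 6 tested UDP-glucuronosyltransferases were lower, and 4 glutathione S-transferases and 1 UDP-glucuronosyltransferase were higher. The level in each library is given as CPM (counts per 1000000 counts of the library, after TMM scaling between libraries). Summed over all 68 members, the level was 826, 815 and 761 CPM in the PBS libraries and 405, 418, 439 and 461 CPM in the TNF libraries. Every TNF library lay below every PBS library, with means of 800.6 ± 35.0 CPM (SD, n = 3) and 431 ± 24.6 CPM (SD, n = 4). The sum fell in each superfamily, from 327 ± 15.3 to 165 ± 18.5 CPM for the P450s, from 318 ± 24.6 to 193 ± 6.17 CPM for the glutathione S-transferases and from 156 ± 6.17 to 72.6 ± 6.68 CPM for the UDP-glucuronosyltransferases. In bulk libraries, fewer cells of a type that holds these mRNAs and less mRNA per cell cannot be told apart.

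Of the 68 members, 50 had enough counts for the test across all genes (edgeR's quasi-likelihood test with Benjamini-Hochberg adjustment, called at an adjusted p under 0.05). Among them 33 fell, 5 rose and 12 did not pass. Over all 14329 genes tested, 30.1% fell and 29.5% rose, 59.6% in all. The median log2 fold change was -1.41 over the tested members and 0.0017 over all genes tested. Falls of at least 2-fold were called for 27 members, against 17.2% of all genes, and rises of at least 2-fold for 4 members, against 14.4%. Falls of at least 8-fold were called for 11 members, against 2.78% of all genes, and 9 of these 11 passed the count filter only through PBS, the group in which they were high. Over all 68 members, every TNF library lay below every PBS library for 40 and above for 6, and the groups overlapped for 22. Over all genes tested the shares that lay below and above were 30.9% and 29.9%. Those genes all passed the count filter, while 18 of the 68 members did not.

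Some members reached the count filter only through the group in which they were high, 11 through PBS and 2 through TNF. Among the 35 members that passed it in both groups, 22 fell, 4 rose and 9 did not pass the test, with a median of -0.81. Of the 12091 genes that passed in both groups, 30.7% fell and 30.7% rose, with a median of -0.0011. Among these same 35 members, 16 fell at least 2-fold (15.4% of the 12091 genes), 3 rose at least 2-fold (12.8%) and 2, Ugt1a1 and Cyp2j9, fell at least 8-fold (0.835%).

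**Figure D1:**
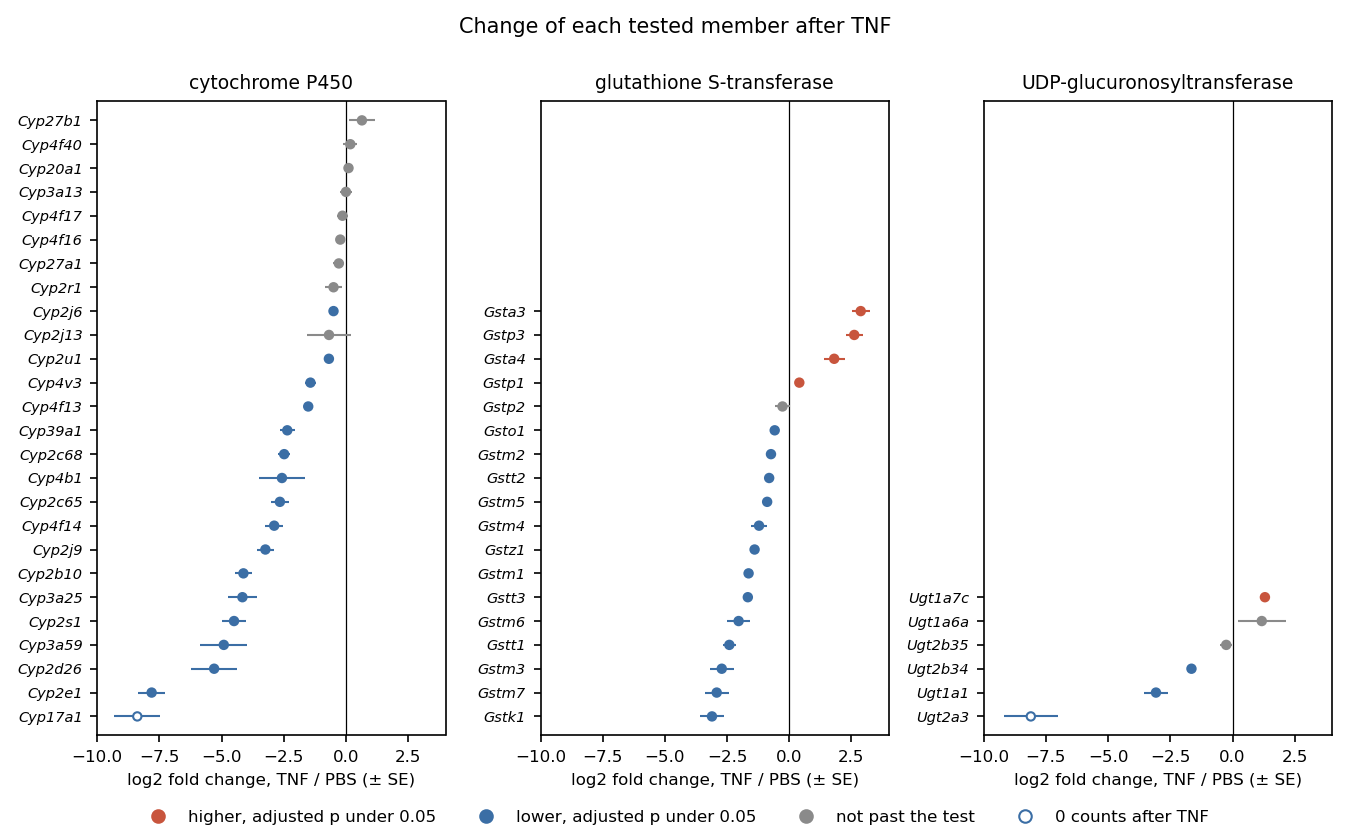
Log2 fold change (TNF over PBS) with its standard error on the horizontal axis for each of the 50 tested members, in 1 panel per superfamily, coloured by the edgeR call; open circles mark the 2 members with 0 counts after TNF, for which the fitted value depends on the prior count. No P450 lies to the right among the called members, while 4 glutathione S-transferases and Ugt1a7c do.

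Markers of other cell types also moved between the groups, and their part in the results below was not tested. Of 10 enterocyte markers tested, 9 fell, and the summed level of the 12 listed was 1242 to 1476 CPM after PBS and 364 to 432 CPM after TNF. The second PBS library stood apart in genes of mature enterocytes. In it Apoa1 was at 22.1 CPM, against 1.11 and 2.39 CPM in the other PBS libraries, and Lct was at 10.2 CPM, against 0.062 and 0.90 CPM. Without that library 31 members fell and 5 rose. Of 8 tuft cell markers 7 fell (summed level 1587 to 2641 CPM after PBS, 336 to 833 CPM after TNF), as did 6 of 6 stem cell markers (2664 to 3816 and 1057 to 1698 CPM), 4 of 8 goblet cell markers (11301 to 20705 and 9440 to 10976 CPM) and 3 of 8 enteroendocrine markers (35.8 to 151 and 22.5 to 33.4 CPM). The goblet cell marker Spdef rose by 1.44. Over all genes tested 30.1% fell, and of the 8 enteroendocrine markers 2 had every TNF library below every PBS library. Of 10 PC markers, 3 rose and 2 fell, and their summed level overlapped between the groups, at 168275 to 273841 CPM after PBS and 171716 to 312695 CPM after TNF.

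Genes that mark position along the small intestine moved as well. Of 7 tested duodenal and jejunal genes 5 fell, among them Gata4 by 2.94 on the log2 scale, while of 4 tested ileal genes 3 rose, among them the distal Hox genes Hoxb8 by 1.70 and Hoxb9 by 2.22, and 1 fell. The labels do not say which part of the small intestine the cells came from. Leukocyte markers summed to 24.7 to 31.97 CPM after PBS and 18.97 to 28.5 CPM after TNF, with 1 higher and 1 lower of 4 tested and Cd3e at 0 in all libraries. Stromal and endothelial markers stayed at or below 0.45 CPM in sum and erythroid markers at or below 0.24 CPM, with Col1a2, Kdr and the globin genes at 0. Hepatocyte genes summed to 10.03 to 12.5 CPM after PBS and 2.48 to 5.04 CPM after TNF, with 1 higher and 2 lower of 5 tested.

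**Figure D2:**
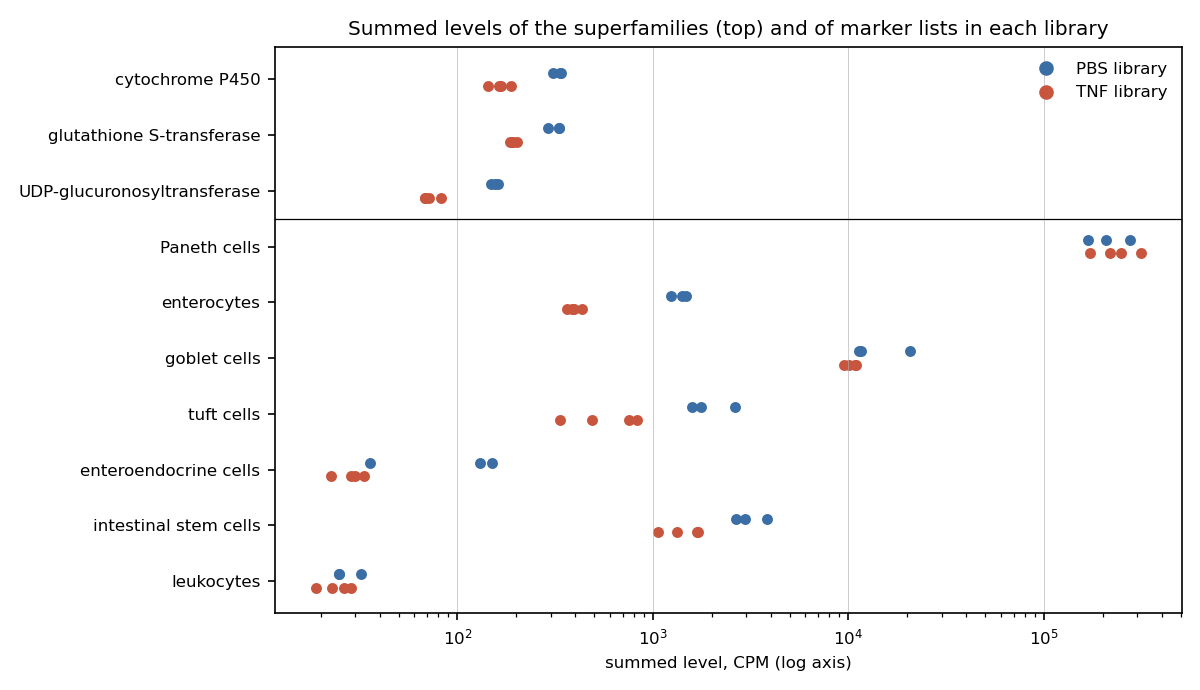
Summed level in CPM (log axis) of the members of each superfamily (top) and of marker lists of 7 cell types (below), 1 point per library, PBS above TNF within each row. The superfamily sums and the enterocyte, goblet, tuft, enteroendocrine and stem cell sums are lower in every TNF library than in every PBS library, while the Paneth cell and leukocyte sums overlap.

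Among the P450s, 26 of 39 members could be tested, and 17 fell, none rose and 9 did not pass. Over all genes tested 30.1% fell and 29.5% rose. Of the 17 that fell, 8 had passed the count filter only through PBS. Among the 16 P450s that passed it in both groups 9 fell, where 30.7% of all such genes fell. By edgeR at an unadjusted p under 0.05 and by the Wald test of DESeq2 the count of P450s higher after TNF was also 0. In 23 of the 39 P450s all TNF libraries lay below all PBS libraries, and in none did they lie above. Over all genes tested these shares were 30.9% and 29.9%, while the 39 include 13 P450s with too few counts for the test.

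Families 2 and 3 hold most of the P450s known for drug and toxin oxidation, and 11 of their 14 tested members fell, against 30.1% of all genes. Of these 11, 6 had passed the filter only through PBS (Cyp2b10, Cyp2d26, Cyp2e1, Cyp2s1, Cyp3a25 and Cyp3a59). Of the 7 that passed it in both groups 5 fell, against 30.7% of all such genes. Per length of its own exons, Cyp2c68 (ENSMUSG00000074882) was the most abundant P450 after PBS (27.4 CPM per kb). Its level was 57.9, 42.5 and 46.0 CPM in the PBS libraries and 8.28, 5.84, 6.80 and 14.1 CPM in the TNF libraries. The groups lay far apart, and the log2 fold change was -2.49 ± 0.25 (SE; edgeR adjusted p = 7.23e-06). Of the 75-base windows of its transcript, 28.7% occur in other genes, mostly Cyp2c40, so part of its count may belong to relatives. Its neighbour Cyp2c65 on chromosome 19 fell by 2.66, from 4.80 ± 0.94 to 0.75 ± 0.14 CPM. Both belong to the Cyp2c subfamily, whose enzymes oxidise drugs and arachidonic acid.

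Cyp2j6, an arachidonic acid epoxygenase, was the P450 with the second highest level per kb after PBS (17.97 CPM per kb) and changed less. It was at 74.9, 64.7 and 56.4 CPM after PBS and at 40.9, 45.3, 44.1 and 54.3 CPM after TNF. The groups did not overlap, but the highest TNF value came near the lowest PBS value (log2 fold change -0.50 ± 0.13, edgeR adjusted p = 0.00352). Cyp2j9, from the same cluster on chromosome 4, was at 8.96, 7.53 and 6.10 CPM after PBS and at 0.73, 0.53, 0.80 and 1.11 CPM after TNF, a log2 fold change of -3.24 ± 0.33. Cyp2j13 gave -0.68 ± 0.88 and did not pass.

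Cyp2e1 (ENSMUSG00000025479, GRCm39 chr7:140343652-140355167), which oxidises ethanol and small solvents, had the most counts after PBS among members that were nearly absent after TNF. It was at 10.3, 6.82 and 7.32 CPM in the PBS libraries and at 0.056, 0, 0 and 0.065 CPM in the TNF libraries. This corresponds to 439 counts against 2, a ratio of 276 (95% Clopper-Pearson interval 76.0 to 2287, counting error only). The upper end is set by the 2 TNF counts, and without TNF replicate 4, which holds 1 of them, the ratio was 430. Cyp2b10, a P450 induced by drugs through the receptor Nr1i3, was at 12.2, 9.77 and 7.05 CPM after PBS and at 0.73, 0.47, 0.64 and 0.33 CPM after TNF (log2 fold change -4.12 ± 0.34, edgeR adjusted p = 2.00e-07). Like Cyp2e1 and Cyp2s1, it passed the count filter only through PBS, the group in which it was high. Cyp2s1, a P450 of epithelia outside the liver, was at 6.37, 11.2 and 13.0 CPM after PBS and at 0.34, 0.41, 0.11 and 0.98 CPM after TNF, a log2 fold change of -4.50 ± 0.47 that reached -5.17 without TNF replicate 4.

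The Cyp3a subfamily includes the mouse relatives of the main drug-oxidising P450s of the human gut. Cyp3a25 fell by 4.17 ± 0.60 on the log2 scale, from 2.19 ± 0.57 to 0.11 ± 0.059 CPM. Over the groups, 61 counts of Cyp3a59 after PBS stood against 2 after TNF, giving a ratio of 38.4 (10.2 to 324) that becomes a bound of at least 19.9 without TNF replicate 4, which held both counts. Cyp2d26 behaved alike, with 79 counts against 2, a ratio of 49.7 (13.3 to 417), and at least 24.5 without TNF replicate 1, which held both counts. Cyp3a13 was at 7.97, 8.50 and 4.93 CPM after PBS and at 6.49, 7.31, 7.82 and 6.87 CPM after TNF, a log2 fold change of -0.0014 ± 0.23 that did not pass and whose sign changed with the library left out. Cyp3a11 could not be tested, and all of its 24 PBS counts came from PBS replicate 2, the library that stood apart in mature enterocyte genes, against 2 counts after TNF. Cyp2u1, a fatty acid hydroxylase, fell by 0.69 ± 0.22 (edgeR adjusted p = 0.0140), a call that was lost without PBS replicate 2 (-0.64, adjusted p = 0.0547) or PBS replicate 3 (-0.60, adjusted p = 0.0552).

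**Figure D3:**
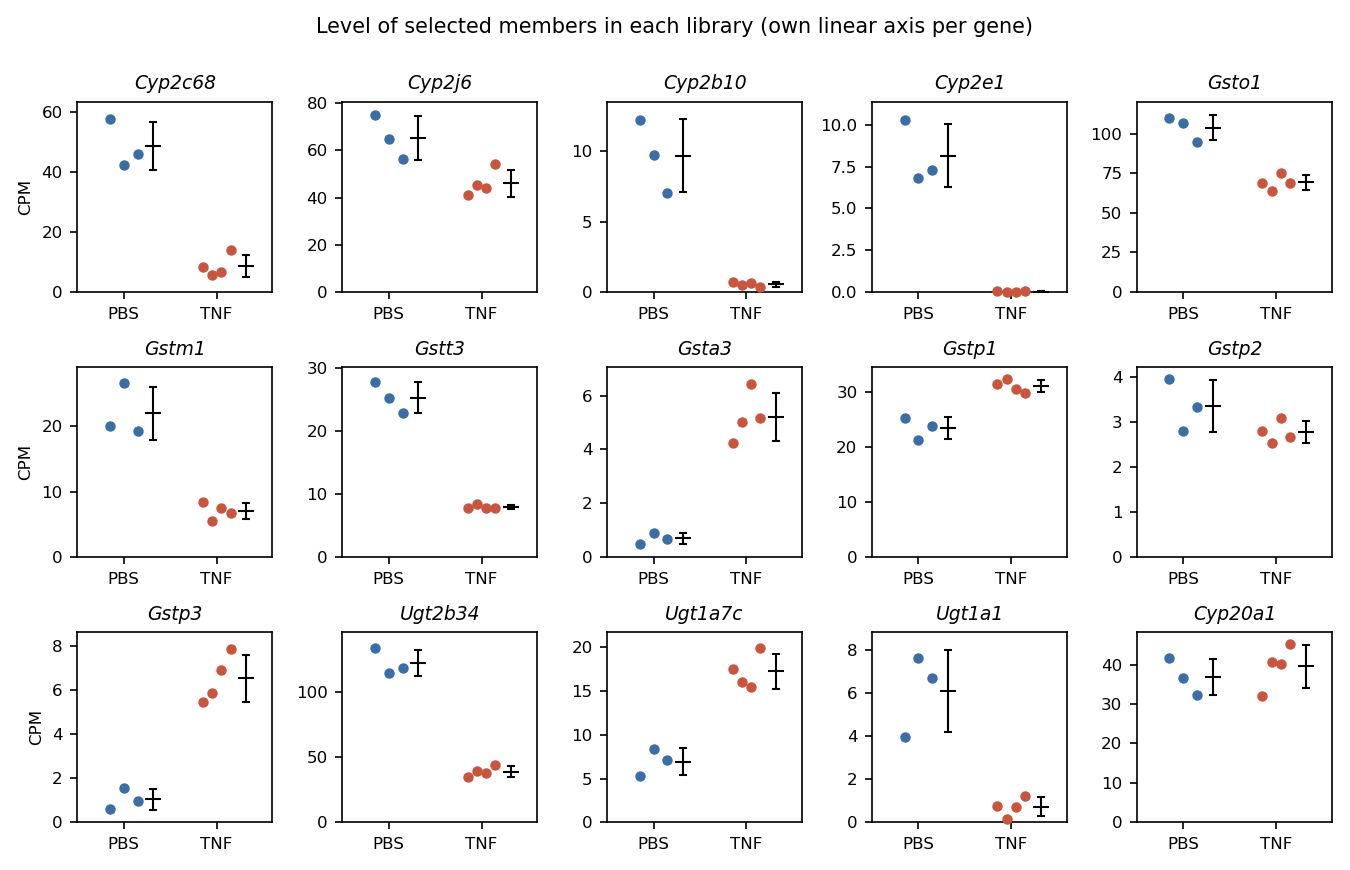
Level in CPM of 15 members in each library, on a linear axis of its own for each gene that starts at 0; points are the 3 PBS and 4 TNF libraries, and the bar beside them gives the mean ± SD. Gsta3, Gstp1, Gstp3 and Ugt1a7c lie higher in all TNF libraries, Gstp2 and Cyp20a1 overlap, and the other 9 lie lower in all TNF libraries.

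Family 4 P450s hydroxylate fatty acids and their signalling derivatives, and 4 of 7 tested members fell, against 30.1% of all genes. Of the 4, Cyp4b1 passed the filter only through PBS, and of the 6 members that passed it in both groups 3 fell. Cyp4f14, which inactivates leukotriene B, was at 13.6, 30.5 and 18.9 CPM after PBS and at 2.91, 1.47, 4.71 and 2.16 CPM after TNF. The PBS libraries differed among themselves, with the highest value in the second, and all lay above the TNF libraries (log2 fold change -2.89 ± 0.36, edgeR adjusted p = 3.68e-05). Cyp4f13 was at 21.4, 19.7 and 21.3 CPM after PBS and at 7.50, 6.84, 7.82 and 6.81 CPM after TNF, a log2 fold change of -1.52 ± 0.15 with little spread in either group. Cyp4v3 was at 14.6, 18.02 and 16.5 CPM after PBS and at 5.76, 4.24, 5.62 and 8.77 CPM after TNF, a log2 fold change of -1.43 ± 0.22. The cluster on chromosome 17 that holds Cyp4f13 and Cyp4f14 also holds Cyp4f16, Cyp4f17 and Cyp4f40, and these did not pass, with log2 fold changes of -0.23 ± 0.18, -0.14 ± 0.22 and 0.17 ± 0.29.

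Cyp4b1 was at 1.11, 0.92 and 0.69 CPM after PBS and at 0, 0.53, 0.054 and 0 CPM after TNF. Its log2 fold change of -2.58 ± 0.94 (edgeR adjusted p = 0.0292) rested on few counts, 49 and 10 over the groups. The call was lost without PBS replicate 1 or 2 (-2.40 and -2.56, adjusted p = 0.0913 and 0.0739) and without TNF replicate 3 or 4 (-2.30 and -2.22, adjusted p = 0.0729 and 0.0579), while it was -5.12 without TNF replicate 2.

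The families from 11 to 39 act mainly on sterols, steroids, vitamins and retinoids rather than on drugs, and 2 of 5 tested members fell, near the 30.1% of all genes. Of the 3 that passed the filter in both groups 1 fell, and Cyp17a1 passed it only through PBS. Cyp17a1, a hydroxylase and lyase of steroid hormone synthesis, was at 2.29, 2.49 and 2.33 CPM after PBS and had no count after TNF (130 counts against 0). Against a floor of 3 counts over the TNF group, it was at least 54.5-fold lower. Cyp39a1, an oxysterol hydroxylase of bile acid synthesis, was at 7.48, 6.82 and 8.43 CPM after PBS and at 1.34, 1.24, 2.09 and 1.18 CPM after TNF (log2 fold change -2.36 ± 0.29, edgeR adjusted p = 1.00e-05). The vitamin D enzymes did not pass, with log2 fold changes of 0.64 ± 0.51 for Cyp27b1, which makes the active hormone, and -0.50 ± 0.33 for Cyp2r1 of family 2, which acts one step before it. Cyp27a1, a mitochondrial sterol hydroxylase, gave -0.29 ± 0.22.

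Cyp20a1, an orphan P450 without an established substrate, was at 41.6, 36.7 and 32.3 CPM after PBS and at 32.1, 40.6, 40.2 and 45.2 CPM after TNF. The groups overlapped (log2 fold change 0.10 ± 0.13), and the sign was negative when libraries were scaled by total counts only. Per kb of its own exons it was the third most abundant P450 after PBS (16.4 CPM per kb) and the most abundant after TNF (17.6 CPM per kb). Its share of all P450 CPM was 11.3% after PBS and 23.8% after TNF, and that of Cyp2c68 14.9% and 5.22%.

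All 18 glutathione S-transferase members could be tested, and 13 fell, 4 rose and 1 did not pass, where 30.1% of all genes tested fell and 29.5% rose. Of these calls 2 falls, Gstm3 and Gstk1, had passed the count filter only through PBS and 1 rise, Gsta3, only through TNF. Among the 15 that passed it in both groups 11 fell and 3 rose. The calls divided by class. All 7 mu class genes fell, as did all 3 theta class genes and the only members of the omega, zeta and kappa classes. Both alpha class genes rose, and of 3 pi class genes 2 rose and 1 did not pass. Only Gstp2 of the 18 had overlapping groups. Over all genes tested every TNF library lay below every PBS library for 30.9% and above for 29.9%.

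Gsto1 (ENSMUSG00000025068, GRCm39 chr19:47842686-47853229), which reduces dehydroascorbate and mixed disulphides, was the most abundant member per kb (54.4 CPM per kb after PBS and 36.3 after TNF). It was at 110.1, 106 and 94.6 CPM after PBS and at 68.6, 63.7, 75.2 and 69.0 CPM after TNF, a log2 fold change of -0.59 ± 0.10 (edgeR adjusted p = 0.000192) with no overlap. Gstz1, an enzyme of tyrosine breakdown, was at 25.6, 31.3 and 27.2 CPM after PBS and at 9.35, 12.5, 10.1 and 10.7 CPM after TNF (-1.39 ± 0.15). Gstk1 of mitochondria and peroxisomes fell from 4.22 ± 1.53 to 0.49 ± 0.23 CPM (-3.11 ± 0.47, edgeR adjusted p = 6.42e-05).

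The mu class genes lie side by side on chromosome 3 (GRCm39 chr3:107803137-107952210) and conjugate a wide range of aromatic and epoxide electrophiles. Their log2 fold changes ran from -0.73 for Gstm2 to -2.92 for Gstm7, and 5 of the 7 fell at least 2-fold, against 17.2% of all genes tested. Gstm1 was at 20.1, 26.6 and 19.2 CPM after PBS and at 8.45, 5.54, 7.50 and 6.74 CPM after TNF (-1.64 ± 0.18, edgeR adjusted p = 4.04e-06). Gstm2, the most abundant of them per kb over all libraries, was at 31.0, 29.4 and 24.9 CPM after PBS and at 18.02, 17.3, 17.6 and 15.3 CPM after TNF (-0.73 ± 0.13). Gstm5 was close to it, at 27.7, 25.6 and 20.6 CPM after PBS and at 12.6, 12.4, 13.5 and 14.7 CPM after TNF (-0.89 ± 0.14). None of these 3 genes had a TNF library as high as any PBS library, and 24.8% of the windows of Gstm2 also occur in the locus Gm6665.

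The theta class genes lie together on chromosome 10 (GRCm39 chr10:75609940-75673258) and act on small halogenated compounds and peroxides. Gstt3 was at 27.7, 25.2 and 22.8 CPM after PBS and at 7.84, 8.37, 7.87 and 7.72 CPM after TNF (-1.67 ± 0.14, edgeR adjusted p = 2.85e-07). Gstt2 was at 18.5, 18.9 and 22.1 CPM after PBS and at 11.9, 11.3, 10.7 and 11.5 CPM after TNF (-0.81 ± 0.14). Gstt1 fell by 2.41 ± 0.25, from 12.9 ± 3.61 to 2.43 ± 0.38 CPM, so the 3 neighbours fell by unequal amounts and each with little spread after TNF.

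The alpha class genes were scarce after PBS. Gsta3 (ENSMUSG00000025934, GRCm39 chr1:21310806-21335885) was at 0.49, 0.92 and 0.69 CPM after PBS and at 4.25, 5.01, 6.43 and 5.17 CPM after TNF, a rise of a gene that passed the count filter only through TNF (2.87 ± 0.36, edgeR adjusted p = 1.14e-05). Gsta4, which clears aldehydes from lipid peroxidation, was at 0.68, 0.87 and 0.95 CPM after PBS and at 3.64, 2.59, 3.48 and 2.03 CPM after TNF (1.81 ± 0.42, edgeR adjusted p = 0.00202). Both had TNF values above all PBS values. No window of either transcript occurs in another gene, and the genes lie on separate chromosomes, 1 and 9.

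The pi class genes Gstp1, Gstp2 and Gstp3 lie within 1 cluster on chromosome 19 (GRCm39 chr19:4085405-4109569) and conjugate electrophiles such as acrolein. Gstp3 was at 0.62, 1.58 and 0.95 CPM after PBS and at 5.48, 5.89, 6.91 and 7.85 CPM after TNF (2.61 ± 0.35, edgeR adjusted p = 2.12e-05). Gstp1, far more abundant, was at 25.3, 21.3 and 23.97 CPM after PBS and at 31.6, 32.4, 30.6 and 29.9 CPM after TNF. Its rise of 0.40 ± 0.12 (edgeR adjusted p = 0.00786) was small but larger than the spread in either group, and it did not pass when libraries were scaled by total counts only (0.24, adjusted p = 0.223). Gstp2 was at 3.96, 2.80 and 3.34 CPM after PBS and at 2.80, 2.53, 3.11 and 2.68 CPM after TNF, and its groups overlapped (-0.27 ± 0.30).

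How far the counts of these 3 genes can be told apart depends on their sequences, shown here as the first 60 coding bases of each annotated transcript (GENCODE M39, GRCm39), with capitals at positions where the 3 genes are not identical.
Gstp1: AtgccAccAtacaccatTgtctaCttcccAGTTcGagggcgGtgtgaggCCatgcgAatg
Gstp2: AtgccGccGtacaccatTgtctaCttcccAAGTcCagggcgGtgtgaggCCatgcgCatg
Gstp3: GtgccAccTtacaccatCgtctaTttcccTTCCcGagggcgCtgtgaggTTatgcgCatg
Over all 630 coding bases, Gstp1 and Gstp2 differ at 12 positions (98.1% identity), 6 of them in the stretch shown, while Gstp3 differs from each of them at 179 positions (71.6% identity). Of the 75-base windows of the Gstp1 transcript 51.9% occur in Gstp2, so the counts of Gstp1 and Gstp2 depend on how reads with several matches were treated. No such window of Gstp3 occurs in another gene.

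Because these genes moved unequally, their promoters were set side by side with that of Gsta3. The sequences, from 250 bases before to 50 bases after the transcription start, are from RefSeq on GRCm38.p6, 5′ to 3′ on the strand of the gene. Capitals mark matches to the antioxidant response element core TGACNNNGC, to the AP-1 site TGANTCA or to the xenobiotic response element core GCGTG, the letters bound by the Ahr complex, on either strand.
Gsta3 (chr1:21240335-21240634, plus strand): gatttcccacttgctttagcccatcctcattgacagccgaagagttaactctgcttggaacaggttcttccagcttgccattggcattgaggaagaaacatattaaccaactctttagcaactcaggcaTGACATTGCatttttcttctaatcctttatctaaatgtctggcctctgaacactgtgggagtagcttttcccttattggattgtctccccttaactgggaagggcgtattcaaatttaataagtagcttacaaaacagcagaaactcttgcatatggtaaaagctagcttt
Gstp1 (chr19:4037863-4038162, minus strand): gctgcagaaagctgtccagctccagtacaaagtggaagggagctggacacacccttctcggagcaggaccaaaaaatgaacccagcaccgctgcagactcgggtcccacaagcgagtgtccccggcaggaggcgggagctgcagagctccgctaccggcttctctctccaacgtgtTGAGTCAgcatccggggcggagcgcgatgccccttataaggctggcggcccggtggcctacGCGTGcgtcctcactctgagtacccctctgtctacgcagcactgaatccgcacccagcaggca
Gstp2 (chr19:4042172-4042471, minus strand): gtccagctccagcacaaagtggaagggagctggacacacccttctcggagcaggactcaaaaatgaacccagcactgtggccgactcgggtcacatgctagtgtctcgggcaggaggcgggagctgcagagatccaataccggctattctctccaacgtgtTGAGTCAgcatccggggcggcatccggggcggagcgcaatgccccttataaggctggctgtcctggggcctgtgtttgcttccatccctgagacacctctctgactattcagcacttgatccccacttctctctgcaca
Gstp3 (chr19:4059398-4059697, minus strand): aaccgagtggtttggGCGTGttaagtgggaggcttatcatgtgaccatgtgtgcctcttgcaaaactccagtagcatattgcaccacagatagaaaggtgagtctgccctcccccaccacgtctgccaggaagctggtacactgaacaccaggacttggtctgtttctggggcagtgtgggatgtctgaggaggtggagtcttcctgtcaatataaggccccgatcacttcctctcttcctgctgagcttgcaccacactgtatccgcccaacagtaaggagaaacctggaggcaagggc
Gsta3 held the antioxidant element core, Gstp1 and Gstp2 each held the AP-1 site, and Gstp1 and Gstp3 each held the xenobiotic element core at different distances from the start. The 2 promoters of Gstp1 and Gstp2 were 77.1% identical in a global alignment, against 52.3% for Gstp1 and Gstp3.

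The same letters were counted in all promoters. A promoter was found for 59 of the 68 members, with 73 promoters between them. Of these 59 members 4 rose, 29 fell, 11 did not pass and 15 were not tested. The antioxidant element core occurred in 12.4% of all 32851 promoters and in 8 members, of which 1 rose and 5 fell. The AP-1 site occurred in 7.81% of all promoters and in 8 members, of which 1 rose and 2 fell. The xenobiotic element core occurred in 32.4% of all promoters and in 24.7% of those of members, 16 members in all, of which 2 rose and 7 fell. The NF-kB site occurred in 8.46% of all promoters and in 5.48% of those of members. These belonged to 4 members, of which 1, Cyp2j6, fell and the others were not tested.

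Of 11 UDP-glucuronosyltransferase members 6 could be tested, and 3 fell, 1 rose and 2 did not pass, against 30.1% and 29.5% of all genes. Ugt2a3 had passed the filter only through PBS, and of the 4 that passed it in both groups 2 fell and 1 rose. Ugt2b34 (ENSMUSG00000029260, GRCm39 chr5:87037626-87054814), of the steroid- and bile acid-conjugating family 2, held 79.0% of the CPM of the superfamily after PBS. It was at 134, 115 and 119 CPM after PBS and at 34.8, 39.6, 38.0 and 44.3 CPM after TNF, far apart and tight within each group (-1.65 ± 0.11, edgeR adjusted p = 2.67e-08). Its neighbour Ugt2b35 on chromosome 5 was at 10.6, 15.2 and 23.5 CPM after PBS and at 11.6, 11.6, 15.7 and 16.4 CPM after TNF. These groups overlapped (-0.25 ± 0.24), and the sign turned without PBS replicate 3. Ugt2a3, in the same cluster, was at 1.55, 1.22 and 3.08 CPM after PBS and had no count after TNF (107 counts against 0), at least 44.9-fold lower against the floor of 3 counts over the group.

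At the Ugt1a locus on chromosome 1 (GRCm39 chr1:88022726-88147724), several first exons, each with its own promoter, are joined to one set of shared later exons. Ugt1a7c (ENSMUSG00000090124), which conjugates phenols, rose, while Ugt1a1 (ENSMUSG00000089960), the enzyme that conjugates bilirubin, fell. Ugt1a7c was at 5.32, 8.399 and 7.16 CPM after PBS and at 17.6, 16.03, 15.4 and 19.96 CPM after TNF (1.30 ± 0.19, edgeR adjusted p = 4.18e-05). Ugt1a1 was at 3.96, 7.64 and 6.73 CPM after PBS and at 0.78, 0.18, 0.70 and 1.24 CPM after TNF (-3.08 ± 0.46, edgeR adjusted p = 6.15e-05). Neither gene had overlapping groups. Per kb of own exon they were close after PBS, at 7.14 and 6.68 CPM per kb, and stood at 17.7 and 0.79 CPM per kb after TNF.

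The first 60 coding bases of both genes, which lie in their own first exons, and 60 bases from the start of the shared part, in capitals, show what tells these transcripts apart (GENCODE M39, GRCm39).
Ugt1a1, own exon: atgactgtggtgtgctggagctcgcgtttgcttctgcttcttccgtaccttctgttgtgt
Ugt1a7c, own exon: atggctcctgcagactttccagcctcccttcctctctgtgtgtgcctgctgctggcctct
Shared part: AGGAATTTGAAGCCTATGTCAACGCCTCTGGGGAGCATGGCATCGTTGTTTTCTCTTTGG
The last 737 coding bases were identical in both, while the 868 bases of Ugt1a1 and 856 bases of Ugt1a7c before them were 58.0% identical in a global alignment. About 70% of the transcript of each lies in windows that other Ugt1a genes share (71.1% for Ugt1a1 and 70.3% for Ugt1a7c), so the counts rest on how reads of the shared exons were assigned, which the labels do not say. Ugt1a6a, whose windows are 98.4% shared, was at 0.12, 0.46 and 0.64 CPM after PBS and at 2.35, 0.18, 1.12 and 0.065 CPM after TNF, and did not pass (1.18 ± 0.96). Ugt1a2 had no count after PBS and 8, 3, 3 and 2 counts after TNF, at least 4.24-fold higher against the floor over the group (a bound of 2.72 when PBS replicate 2 was left out and of 2.78 when replicate 3 was), and had too few counts for the test.

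**Figure D4:**
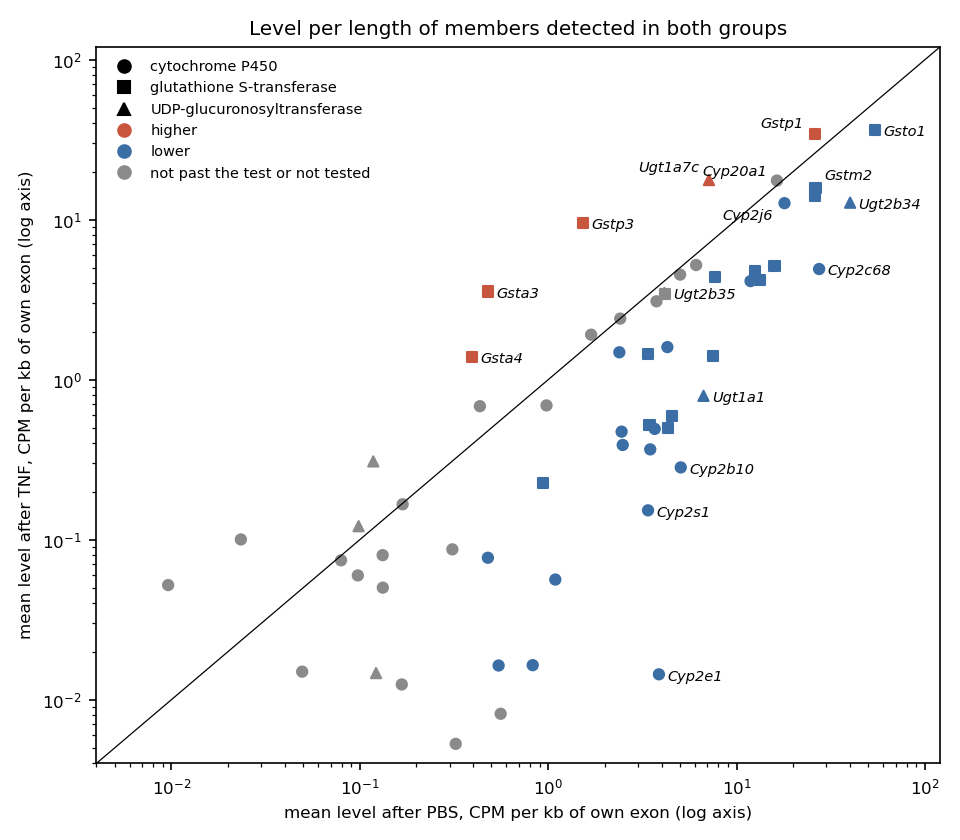
Mean level after PBS (horizontal) and after TNF (vertical) in CPM per kb of own exon, both log axes, for the 61 of 68 members with a value above 0 in both groups; the line marks equal levels, the shape the superfamily and the colour the edgeR call. The abundant members Gsto1, Gstm2, Ugt2b34 and Cyp2c68 lie below the line, Gstp1 and Ugt1a7c above it, and Cyp20a1 near it.

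Across all tested members, those that rose were few and, except for Gstp1 and Ugt1a7c, at or under about 1 CPM after PBS. As a share of the superfamily's CPM, Gstp1 went from 7.44% to 16.2%, Gstp3 from 0.33% to 3.39% and Gsta3 from 0.22% to 2.701%, while Gsto1 held 32.6% and 35.8%. Among UDP-glucuronosyltransferases, Ugt1a7c went from 4.49% to 23.8% and Ugt2b34 from 79.0% to 54.0%.

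The 18 members below the count filter had 13 to 65 counts in all. Fitted without the filter, 5 of them fell (Ugt2b5, Cyp2c55, Cyp2w1, Cyp3a11 and Cyp4f15), 2 rose (Ugt1a2 and Cyp2d34) and 11 did not pass. In that fit 19% of 24572 genes fell and 17.9% rose, and of the 10243 genes below the filter, which need only 1 count to enter, 4.08% fell and 2.17% rose. For Cyp2c55, 64 counts after PBS stood against 1 after TNF, giving a ratio of 80.5 (95% Clopper-Pearson interval 13.9 to 3229), or at least 20.9 without TNF replicate 4, which held the 1 count. Cyp2w1 had 23 counts after PBS, at least 9.64-fold lower after TNF, but 18 of these were in PBS replicate 3, and without it the bound was 3.20. Cyp2d34 had 24 counts, all after TNF, though TNF replicate 3 had none. It was at least 6.36-fold higher, a bound that fell to 4.07 without PBS replicate 2, 4.17 without PBS replicate 3 and 4.09 without TNF replicate 4.

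The other genes of the pathway were read from 6 lists of 138 genes, of which 117 could be tested. In these lists 50 genes fell, 35 rose and 32 did not pass, with a median log2 fold change of -0.18. The share that rose, 29.9%, was close to the 29.5% of all genes tested, and the share that fell was 42.7%, against 30.1%. The lists differed in how their calls divided between higher and lower.

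**Figure D5:**
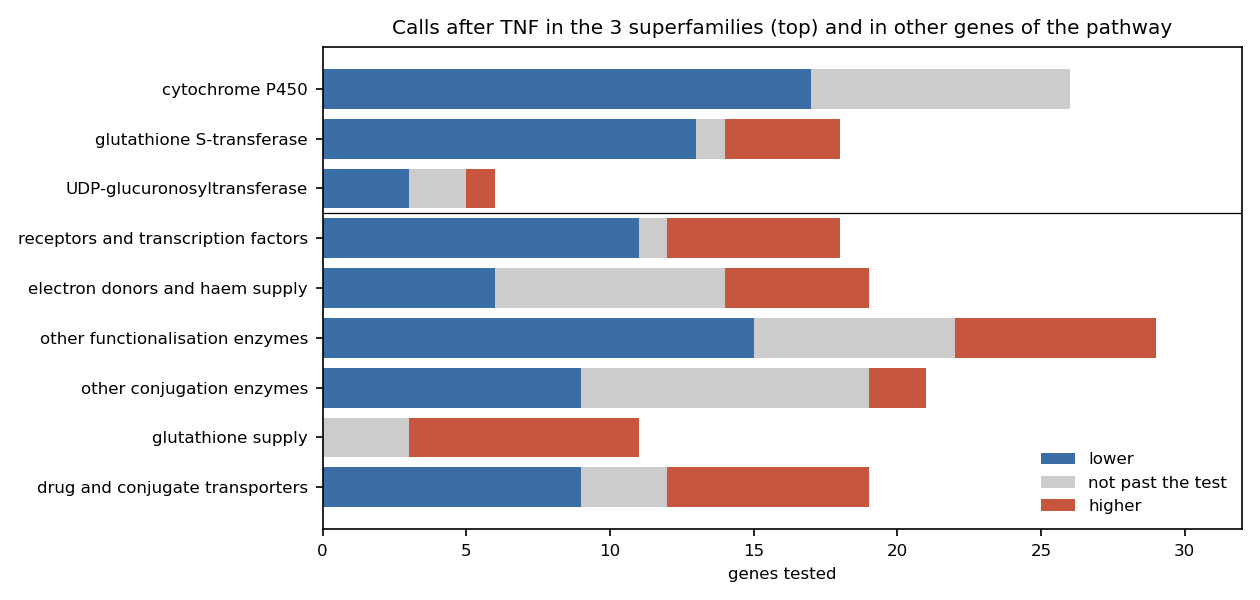
Number of tested genes that were lower, not past the test or higher after TNF (horizontal axis, genes) in the 3 superfamilies (top) and in the 6 lists of other pathway genes. Of 11 tested genes of the glutathione supply list, which also holds genes that use or break down glutathione, 8 were higher and 0 lower. The conjugation list has 2 higher and 9 lower of 21.

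Of 18 tested receptors and transcription factors that control these enzymes, 11 (61.1%) fell and 6 (33.3%) rose. Ahr, the receptor for dioxin-like compounds and plant indoles, was at 12.3, 13.7 and 9.86 CPM after PBS and at 27.6, 25.9, 29.6 and 21.4 CPM after TNF (1.13 ± 0.16). Nr1i2, the pregnane X receptor that induces Cyp3a genes, was at 19.3, 26.2 and 21.3 CPM after PBS and at 11.8, 10.4, 12.2 and 8.64 CPM after TNF (-1.05 ± 0.17). Hnf4a, a nuclear receptor needed for many hepatic and intestinal P450 genes, fell by 1.53 ± 0.11, and Vdr, the vitamin D receptor, by 2.57 ± 0.16. Foxa2 fell by 3.04 ± 0.20, Ppara by 1.07 ± 0.19 and Rxra, the shared partner of several of these receptors, by 0.54 ± 0.11. Among those that rose were Cebpb (2.16 ± 0.19), Nr1h4, the bile acid receptor (0.98 ± 0.16), and Keap1, which holds the factor Nfe2l2 in check (0.77 ± 0.10). Nfe2l2 itself did not pass (-0.16 ± 0.12), and the drug receptor Nr1i3 was at 2.07 CPM or less in every library and was not tested.

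Electron donors and haem enzymes divided more evenly, with 5 higher, 6 lower and 8 not past the test of 19, shares of 26.3% and 31.6% that are near those of all genes. Por, which passes electrons to all microsomal P450s, was at 40.6, 42.2 and 29.7 CPM after PBS and at 95.03, 107, 92.3 and 106 CPM after TNF (1.42 ± 0.13), with no overlap. Alas1, the first enzyme of haem synthesis, rose by 0.74 ± 0.10, and Uros and Urod, later steps, fell by 2.04 ± 0.17 and 1.21 ± 0.14. Hmox1, which breaks down haem, rose by 2.88 ± 0.23. Of the mitochondrial chain, Fdx1 rose by 1.58 ± 0.19 and Fdxr fell by 1.604 ± 0.29.

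Of 29 tested functionalisation enzymes outside the P450s, 15 (51.7%) fell and 7 (24.1%) rose. Fmo5, a flavin monooxygenase, fell by 4.18 ± 0.24, the carboxylesterase Ces1d by 4.51 ± 0.36 and the epoxide hydrolases Ephx1 and Ephx2 by 1.99 ± 0.12 and 2.31 ± 0.26. Aldh1b1, a mitochondrial aldehyde dehydrogenase, was at 505, 473 and 541 CPM after PBS and at 40.9, 57.7, 54.4 and 48.6 CPM after TNF (-3.33 ± 0.13). The aldo-keto reductase Akr1b8 moved the other way, from 0.43, 0.51 and 0.42 CPM after PBS to 52.6, 75.5, 85.9 and 63.1 CPM after TNF (7.22 ± 0.25, edgeR adjusted p = 1.09e-10). The quinone reductase Nqo1 rose by 2.89 ± 0.35 and xanthine dehydrogenase (Xdh) by 2.18 ± 0.13.

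The glutathione supply list was the one in which no tested gene was lower at an adjusted p under 0.05, with 8 of 11 (72.7%) higher and a median of 1.73. It is wider than its name. Besides genes of synthesis and reduction it holds the peroxidases Gpx1 to Gpx4, which use glutathione, Ggt1 and Chac1, which break it down, and Txnrd1 of the thioredoxin system. Gpx1, Gpx2 and Txnrd1 were among the 8 that rose. Gclc, the catalytic subunit of the first step of glutathione synthesis, was at 74.7, 67.1 and 55.7 CPM after PBS and at 311, 326, 340 and 318 CPM after TNF (2.30 ± 0.12). Gss, the second step, rose by 2.38 ± 0.11, the reductase Gsr by 1.89 ± 0.12 and the cystine carrier Slc7a11 by 2.95 ± 0.31. Gpx2, an epithelial glutathione peroxidase, was at 166, 142 and 127 CPM after PBS and at 3359, 4694, 3944 and 4817 CPM after TNF (4.86 ± 0.21), and it set most of the summed level of this list after TNF.

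Of 21 tested conjugation enzymes outside the member families, 9 (42.9%) fell, 2 (9.5%) rose and 10 did not pass. The tested sulphotransferases of family 1 fell, Sult1a1 by 1.92 ± 0.48, Sult1c2 by 3.23 ± 0.22, Sult1b1 by 2.20 ± 0.32 and Sult1d1 by 0.69 ± 0.14, as did Papss1, which makes their sulphate donor, by 1.27 ± 0.14. Ugdh and Ugp2, which supply the sugar for glucuronidation, did not pass (0.15 ± 0.14 and -0.0061 ± 0.11). Among membrane-bound glutathione transferases, Mgst1 rose by 1.03 ± 0.17 and Mgst2 and Mgst3 fell by 1.15 ± 0.18 and 1.09 ± 0.21.

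Of 19 tested drug and conjugate transporters 9 (47.4%) fell and 7 (36.8%) rose, and the share that rose is not far from the 29.5% of all genes. Abcb1a, the drug efflux pump P-glycoprotein, was at 81.0, 81.9 and 71.6 CPM after PBS and at 229, 232, 264 and 249 CPM after TNF (1.64 ± 0.11). The conjugate exporters Abcc2, Abcc3 and Abcc5 fell by 0.96 ± 0.14, 1.03 ± 0.22 and 2.29 ± 0.27, while Abcc4 rose by 0.64 ± 0.11. The organic anion uptake carrier Slco2b1 had a log2 fold change of -5.41 ± 0.65, or -6.62 without TNF replicate 1, and the efflux pump Abcg2 fell by 0.84 ± 0.20.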

How the data were processed

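Bulk RNA-seq libraries of sorted PCs (3 PBS, 4 TNF) were grouped by their labels. The authors deposited 1 table of raw counts per Ensembl gene, not normalized and not pooled. The submitters' processing notes name FastQC, Trimmomatic 0.39, STAR 2.7.10a, DESeq2 and the builds mm10 and mm39, without roles, and do not state the counting tool, annotation, strand setting or treatment of reads with several matches. Such reads could move counts between the closely related members.

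Symbols, biotypes and exons were matched by identifier to GENCODE M39 (GRCm39), in which 54749 of 55414 identifiers were found. Genes passing filterByExpr (0.551 CPM in 3 libraries) were tested together, 14329 in all, with edgeR 4.0.16 (R 4.3.3, limma 3.58.1; quasi-likelihood, robust, with the trimmed-mean scaling of edgeR, TMM) and called at an adjusted p under 0.05. The script was tested on simulated data. Levels per kb used the exon bases of the canonical annotated transcript that lay in no exon of another matching Cyp, Gst or Ugt gene. Genes needed at least 300 such bases, and similar sequence at other places was not taken out. Shared sequence was the share of 75-base windows of a transcript found in another gene. Folds against a group with no counts used a floor of 3 counts over the group, and ratios resting on 1 to 3 counts have 95% Clopper-Pearson intervals. Both cover counting error only. Promoters were RefSeq sequences on GRCm38.p6, with none for Ugt1a6b, Cyp4f17, Cyp17a1, Cyp39a1, Cyp2d22, Gstt2, Cyp2d34, Gsta4 and Cyp2u1.

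The members and lists were chosen with earlier results of these data known, and the members by their summed counts. Any member could be named. Per-library values were meant for called members with a mean of at least 10 CPM and no overlap, and for the 3 highest per kb in each superfamily. Per-library values of other members and genes of the lists were given after their values were seen. Alternatives were DESeq2 1.42.0 (Wald test, or its size factors in edgeR), scaling by total counts only or without alpha-defensins and Lyz1, no filter, a filter of 1 CPM in 3 libraries, a minimum 2-fold change, a replicate block and leaving out each library.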

Additional observations from a re-analysis of the deposited data

Results flagged for a closer look

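Among the 4 TNF libraries, 3 of 48 members examined had 1 library far from the others by Dixon's criterion, which chance flags in about 1 of 20 groups of continuous values. Cyp2d26 was at 0.112 CPM in TNF replicate 1 and at 0 in the other 3, and Cyp3a59 was at 0.131 CPM in TNF replicate 4 and at 0 in the other 3, each on 2 counts. With 3 libraries at 0 the criterion is met whatever the remaining value is, so that rate does not apply to these 2 members. Cyp4b1 was at 0.530 CPM in TNF replicate 2 and at 0 to 0.054 CPM in the others.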

How the results depend on the processing

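The members called numbered 5 higher and 33 lower with DESeq2 size factors, with TMM scaling without alpha-defensins and Lyz1 and with the DESeq2 Wald test, each sharing all 38 calls, 4 and 33 with scaling by total counts only, and 5 and 30 with the filter of 1 CPM. Without a filter 7 were higher and 38 lower, with 1 P450 (Cyp2d34) and 2 UDP-glucuronosyltransferases higher, since more genes could be tested. A minimum 2-fold change left 4 higher and 27 lower. Leaving out each library gave 5 higher in every fit and 31 to 34 lower. Scaling by total counts moved the median of all genes to -0.16 and gave 3142 genes higher and 4614 lower, against 4229 and 4314, and under it Gstp1 was no longer called (0.24, edgeR adjusted p = 0.223) and the signs of Cyp20a1 (-0.064) and Cyp4f40 (-0.015) turned. The cause was not tested.

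PBS and TNF libraries of the same number did not deviate together (correlations -0.30, -0.03 and -0.17). Over all pairs of a PBS and a TNF library the correlations ran from -0.30 to 0.35. Such values cannot show whether libraries of the same number shared a day or a batch, which the labels do not give. With the replicate block 5 members were higher and 32 lower, 37 calls being shared, Cyp4b1 was no longer called (-2.68, edgeR adjusted p = 0.0767) and Cyp3a13 stood at 0.045. When each library was left out, Cyp3a13 ranged from -0.22 to 0.15 and Ugt2b35 from -0.48 to 0.091, the latter without PBS replicate 3. Of the log2 fold changes of the tested members, 340 kept their direction and side of the threshold under the other alternatives, 3 changed sign and 2 lost their call, and when a library was left out 336 kept both, 5 changed sign and 6 lost their call. Depth limits the members with few counts after TNF, for which only bounds or wide ratios could be given.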
